A study of Mus musculus with 2 samples.

Results

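The 10 genes described here are antioxidant and detoxification genes of mouse liver that the transcription factor NRF2 is known to switch on: Nqo1, Ephx1, Cbr3, Abcc4, Gclc, Gclm, Gpx2, Srxn1, Txnrd1 and Gsr. They were taken by symbol from the 32285 features of the count tables, each matched 1 Ensembl identifier, and their raw counts were followed through marker-named cell classes of liver tumors. The tumors came from C57BL/6J mice and were digested to single cells and read by droplet sequencing of transcript 3′ ends, in which a unique molecular identifier (UMI) counts each captured molecule once. There were 2 libraries, 1 per group. The hKO library came from mice labelled FABP5 hKO, in which a tamoxifen-inducible Cre under the albumin promoter (Alb-CRE-ER) targets Fabp5, a fatty acid binding protein gene, in hepatocytes. The WT library came from wild-type littermates, and the sources used here do not say whether these carried the Cre. Both groups received tamoxifen at an age of 6 to 8 weeks, 5 injections of 100 mg/kg at intervals of 3 days, each after a 16 h fast, and went onto a CD-HFD 2 weeks after the last injection, on which they stayed for 15 months. Each library pooled 2 to 3 tumors, so a value describes 1 pool, there was no replicate and no test, and every interval given is a 95% interval that covers counting error only.

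NRF2, encoded by Nfe2l2, is held at low levels by KEAP1, an adaptor that brings it to the CUL3 ubiquitin ligase for degradation. Oxidants and electrophiles modify KEAP1, NRF2 then enters the nucleus, pairs with small MAF proteins and binds antioxidant response elements, where BACH1 competes with it as a repressor. In liver, the pathway is known for supplying glutathione, for reducing thioredoxin and quinones and for clearing drugs, and mutations that activate it occur in liver cancer.

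The antioxidant response element has the core TGACNNNGC, and the 7 letters TGAGTCA are the related AP-1 site that many such elements contain. Both were searched on both strands in the 250 bases before each RefSeq transcript start (GRCm38.p6), and 1 stretch can hold both. The table holds 8 of the 10 genes, Gclc and Gsr being the others, with 11 start sites, of which 5, in 4 genes, had a match. Over all 32851 windows of this length, 10.2% held TGACNNNGC and 4.46% held TGAGTCA. The windows shown are those of 4 genes with a match and of Cbr3 and Gpx2, the genes with the highest ratios below. They lie on the plus strand at chr2:152105274-152105523 (Srxn1), chr10:82858956-82859205 (Txnrd1), chr3:122245307-122245556 (Gclm) and chr16:93682969-93683218 (Cbr3), and on the minus strand at chr14:118706220-118706469 (Abcc4) and chr12:76795555-76795804 (Gpx2). Each is written 5′ to 3′ along the gene, and capitals mark a match, which on the opposite strand reads GCNNNGTCA.
Srxn1: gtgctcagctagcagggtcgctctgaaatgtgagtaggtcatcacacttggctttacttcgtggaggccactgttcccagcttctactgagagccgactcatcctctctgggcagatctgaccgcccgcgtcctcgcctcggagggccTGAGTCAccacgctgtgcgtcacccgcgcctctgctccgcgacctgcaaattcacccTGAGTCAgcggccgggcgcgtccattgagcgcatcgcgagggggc
Txnrd1: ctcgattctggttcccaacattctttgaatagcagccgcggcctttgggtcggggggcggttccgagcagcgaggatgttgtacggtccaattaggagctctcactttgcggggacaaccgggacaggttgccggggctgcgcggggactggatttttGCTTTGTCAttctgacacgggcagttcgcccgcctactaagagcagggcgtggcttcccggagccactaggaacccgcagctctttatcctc
Abcc4: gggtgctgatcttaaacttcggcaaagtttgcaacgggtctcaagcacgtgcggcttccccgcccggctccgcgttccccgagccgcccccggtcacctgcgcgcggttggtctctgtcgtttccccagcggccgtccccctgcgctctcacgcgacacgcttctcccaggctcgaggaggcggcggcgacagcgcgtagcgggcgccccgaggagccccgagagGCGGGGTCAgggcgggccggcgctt
Gclm: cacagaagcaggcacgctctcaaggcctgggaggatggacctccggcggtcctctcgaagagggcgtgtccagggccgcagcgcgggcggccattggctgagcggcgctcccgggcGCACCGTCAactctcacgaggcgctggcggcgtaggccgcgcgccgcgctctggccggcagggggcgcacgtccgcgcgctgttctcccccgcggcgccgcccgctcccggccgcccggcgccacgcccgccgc
Cbr3: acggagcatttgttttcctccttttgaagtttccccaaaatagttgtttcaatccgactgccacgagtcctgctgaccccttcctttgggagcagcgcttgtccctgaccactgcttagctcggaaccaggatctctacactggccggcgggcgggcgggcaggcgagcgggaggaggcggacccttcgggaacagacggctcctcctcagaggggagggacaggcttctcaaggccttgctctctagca
Gpx2: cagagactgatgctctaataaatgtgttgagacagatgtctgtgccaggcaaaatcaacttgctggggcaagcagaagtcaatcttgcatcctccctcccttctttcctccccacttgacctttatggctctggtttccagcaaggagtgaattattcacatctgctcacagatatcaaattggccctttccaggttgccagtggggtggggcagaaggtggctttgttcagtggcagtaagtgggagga
Srxn1 had TGAGTCA at 102 and again at 45 bases before its start. The TGACNNNGC match stood 92 bases before the start shown for Txnrd1, 25 before that of Abcc4 and 134 before that of Gclm. The Cbr3 and Gpx2 windows held no match, as did those of Nqo1 and Ephx1. These are matches of letters within a short window, not measured binding sites.

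After filters on genes, UMIs and mitochondrial share and removal of doublets, 10402 hKO cells with a median of 3642.5 UMIs and 9459 WT cells with a median of 3822 UMIs remained, with 48298750 UMIs in all in hKO and 48316789 in WT. The libraries differed in mitochondrial share: 36.8% of hKO and 18.5% of WT barcodes were over the 25% mitochondrial limit. The libraries shared 73 barcode sequences, which 41 kept hKO and 49 kept WT cells carried. Cells of both libraries were clustered together, and 38 of 44 clusters were named from markers of 16 cell types, so class names end in -like. Levels are counts per 1000000 UMIs of a class (CPM). A gene was measured with at least 20 UMIs over both libraries in the class, and was past the fold where the log2 ratio of hKO over WT was at least 1 in size and its interval left out 0. A class was compared where both libraries had 100 or more of its cells, which held for 11 classes.

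In hepatocyte-like cells, 5 of the 10 genes were past the fold and higher in hKO and none was lower: Cbr3, Gpx2, Abcc4, Srxn1 and Ephx1. All 10 were measured, with a median log2 ratio of 1.04. Over all 11276 measured genes, 9.18% were past the fold and higher, 46.1% were past it and lower, and the median log2 ratio was −0.92, so an average gene of this class took a smaller share of UMIs in hKO. Summed, the 10 genes made up 2930 CPM in hKO and 1804 CPM in WT. The class held 865 hKO cells with a median of 1468 UMIs and 453 WT cells with a median of 2101 UMIs. Beside these counts, the median mitochondrial share was 19.4% in hKO and 9.19% in WT, and 12 abundant hepatocyte genes took 10.0% of the hKO and 6.30% of the WT UMIs; the part of either in the ratios was not tested. The clusters behind the class were different ones in each library: clusters 24, 23 and 6 held nearly all hKO cells, and clusters 44 and 43 nearly all WT cells. Fabp5 had 40 UMIs in hKO and 126 in WT, a log2 ratio of −1.35 (−1.90 to −0.83), but between the deep clusters 24 and 44 it was 0.16. A 3′ tag need not lie in the deleted part, so this does not check the knockout.

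**Figure D1:**
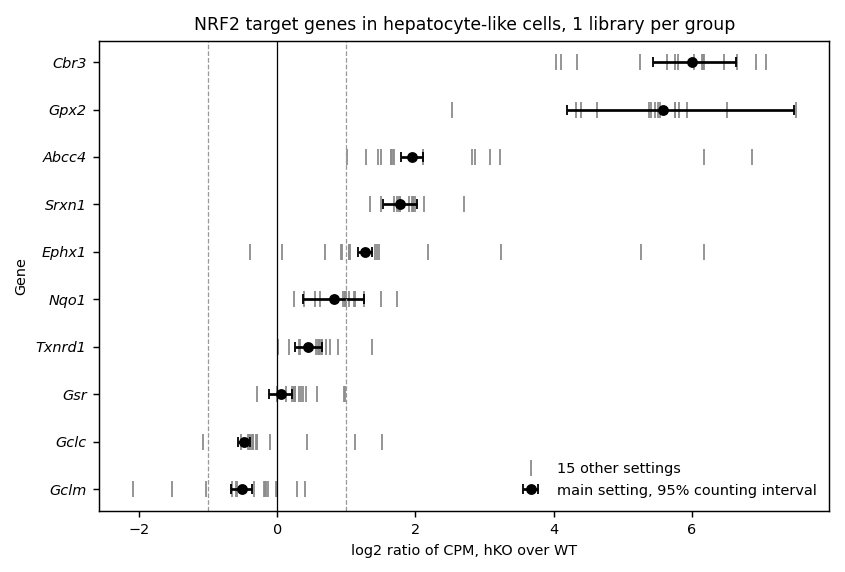
Log2 ratio of CPM, hKO over WT, for the 10 genes in hepatocyte-like cells (points, with 95% counting intervals) and under 15 other settings (ticks). Dashed lines mark a log2 ratio of 1 in either direction. Cbr3 and Gpx2 stand above 2 under every setting drawn, and the ticks of Ephx1, Gsr, Gclc and Gclm lie on both sides of 0.

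Among the enzymes that act on quinones, carbonyls and epoxides, Cbr3 (ENSMUSG00000022947), a carbonyl reductase, differed most. It had 1301 UMIs, 428 CPM (405 to 452), in hKO and 25 UMIs, 6.67 CPM (4.32 to 9.85), in WT hepatocyte-like cells. The log2 ratio was 6.00 (5.44 to 6.64). Cbr3 was high in all 3 hKO clusters, at 629 CPM in cluster 24, 112 CPM in cluster 23 and 337 CPM in cluster 6, against 4.65 CPM in WT cluster 44 and 12.3 CPM in WT cluster 43. The hKO and WT clusters did not overlap. The share of all measured genes whose clusters separate in this way is not given here, for Cbr3 or for the genes below. In the deep clusters, whose cells had medians of 27601 UMIs in hKO and 21125.5 in WT, 87.3% of 55 hKO cells (75.5 to 94.7) and 7.14% of 126 WT cells (3.32 to 13.1) held a Cbr3 UMI. The median hKO cell of cluster 24 had 643 CPM, with quartiles of 96.8 and 869 CPM, and the cell with the most gave 6.13% of the UMIs, so the level was spread over cells. Of the 9 UMIs in WT cluster 43, 66.7% came from 1 cell. Cbr3 was among the leading genes of cluster 24, which were ranked after clustering. The 10 genes, the NRF2 regulators and the other NRF2 targets were then left out of clustering, a choice made after seeing the data. The Cbr3 log2 ratio was then 5.80, and all 55 cells of cluster 24 were still hepatocyte-like, a name that rests on none of the genes left out. The class was a different one, with 1117 hKO and 472 WT cells, and took in 279 of the 280 cells of cluster 37, unnamed before. The Cbr3 paralog Cbr1, looked up after its values were seen, had 1579 UMIs in hKO and 570 in WT, a log2 ratio of 1.77 (1.63 to 1.91), and how reads common to these paralogs were assigned was not tested.

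Ephx1 (ENSMUSG00000038776) encodes microsomal epoxide hydrolase, which opens epoxides of drugs and carcinogens. It had 2283 UMIs, 751 CPM (721 to 783), in hKO and 1169 UMIs, 312 CPM (294 to 330), in WT hepatocyte-like cells, a log2 ratio of 1.27 (1.17 to 1.37). The clusters of the libraries overlapped. Ephx1 was at 294, 1546 and 921 CPM in hKO clusters 24, 23 and 6, and at 384 and 15.0 CPM in WT clusters 44 and 43. Between the deep clusters alone the direction turned, with a log2 ratio of −0.39 (−0.56 to −0.23), and at mitochondrial limits of 10% and 50% it was 0.06 and 0.69, inside the fold. Nqo1 (ENSMUSG00000003849), the quinone reductase often used as a reporter of NRF2, was low and stayed inside the fold. It had 107 UMIs, 35.2 CPM (28.9 to 42.5), in hKO and 75 UMIs, 20.01 CPM (15.7 to 25.1), in WT, a log2 ratio of 0.81 (0.38 to 1.26). Its levels were 48.9, 18.7 and 25.6 CPM in hKO clusters 24, 23 and 6, and 22.6 and 9.55 CPM in WT clusters 44 and 43.

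Abcc4 (ENSMUSG00000032849), an export pump of the liver cell membrane for bile acids and conjugates, was past the fold. It had 1338 UMIs, 440 CPM (417 to 464), in hKO and 429 UMIs, 114 CPM (104 to 126), in WT, a log2 ratio of 1.94 (1.79 to 2.10). All 3 hKO clusters, at 396, 682 and 336 CPM in clusters 24, 23 and 6, stood above WT cluster 44 at 142 CPM and WT cluster 43 at 4.09 CPM. WT cluster 43 held 3 UMIs of Abcc4 in 324 cells.

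The enzymes that make glutathione did not share this direction. Gclc (ENSMUSG00000032350), the catalytic subunit of glutamate-cysteine ligase, had 1611 UMIs, 530 CPM (504 to 557), in hKO and 2779 UMIs, 742 CPM (714 to 770), in WT. Its log2 ratio of −0.48 (−0.57 to −0.40) was inside the fold. Gclm (ENSMUSG00000028124), the modifier subunit of the same enzyme, had 594 UMIs, 195 CPM (180 to 212), in hKO and 1046 UMIs, 279 CPM (262 to 297), in WT, a log2 ratio of −0.51 (−0.66 to −0.37). Both were below 0 on this scale and above 0, at 0.44 for Gclc and 0.41 for Gclm, once ratios were centred on the median of all genes. Gclc was at 724, 287 and 397 CPM in hKO clusters 24, 23 and 6, and at 883 and 157 CPM in WT clusters 44 and 43. For Gclm these levels were 317, 59.2 and 102 CPM in hKO, and 259 and 363 CPM in WT. The hKO and WT clusters overlapped for both subunits, and WT cluster 43 had the lowest value of the 5 for Gclc and the highest for Gclm.

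Gpx2 (ENSMUSG00000042808), a glutathione peroxidase best known from the gut lining, was close to absent from WT hepatocyte-like cells. It had 155 UMIs, 51.0 CPM (43.3 to 59.7), in hKO and 4 UMIs, 1.07 CPM (0.291 to 2.73), in WT hepatocyte-like cells, a log2 ratio of 5.58 (4.19 to 7.47). It was at 81.3, 17.1 and 27.7 CPM in hKO clusters 24, 23 and 6, and at 1.33 CPM in WT cluster 44. WT cluster 43 had 0 UMIs. A Gpx2 UMI was found in 72.7% of the 55 hKO cells of cluster 24 (59.0 to 83.9) and in 1.59% of the 126 WT cells of cluster 44 (0.193 to 5.62).

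Srxn1 (ENSMUSG00000032802), sulfiredoxin, repairs peroxiredoxins that peroxide has over-oxidized. It had 530 UMIs, 174 CPM (160 to 190), in hKO and 191 UMIs, 51.0 CPM (43.99 to 58.7), in WT, a log2 ratio of 1.77 (1.53 to 2.02). Its levels of 203, 107 and 177 CPM in hKO clusters 24, 23 and 6 did not overlap the 54.1 and 38.2 CPM of WT clusters 44 and 43. Txnrd1 (ENSMUSG00000020250), the cytosolic thioredoxin reductase, had 455 UMIs, 150 CPM (136 to 164), in hKO and 411 UMIs, 110 CPM (99.3 to 121), in WT, a log2 ratio of 0.45 (0.25 to 0.64) that was inside the fold. Gsr (ENSMUSG00000031584), which regenerates reduced glutathione, had 531 UMIs in hKO and 633 in WT, at 175 CPM (160 to 190) in hKO and 169 CPM (156 to 183) in WT. Its log2 ratio of 0.05 (−0.12 to 0.22) held 0.

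**Figure D2:**
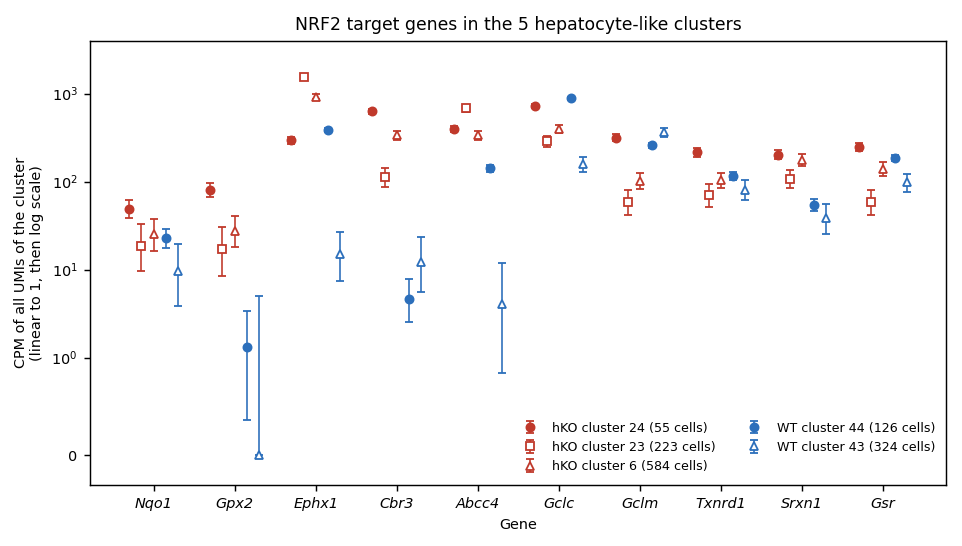
CPM of the 10 genes in each hepatocyte-like cluster (hKO clusters 24, 23 and 6 in red, WT clusters 44 and 43 in blue; filled circles are the deep clusters; bars are 95% Poisson intervals; the axis is linear to 1 and logarithmic above). For Cbr3, Gpx2, Abcc4 and Srxn1 every hKO cluster lies above both WT clusters, and for Ephx1, Gclc and Gclm the clusters interleave. The share of all measured genes that separate in this way is not given.

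Of the deep clusters, cluster 24 had 55 hKO cells with a median mitochondrial share of 10.4%, and cluster 44 had 126 WT cells at 3.59%. In a comparison of the deep clusters alone (57 hKO and 126 WT cells), added after the data were seen, 5 genes were again past the fold and higher and none was lower, against 9.20% of all measured genes higher and 36.4% lower. Ephx1 dropped out of the 5 and Nqo1, at 1.11 (0.61 to 1.61), came in. The log2 ratios there were 7.07 for Cbr3, 5.93 for Gpx2, 1.90 for Srxn1, with an interval of 1.32 to 1.69 for Abcc4. The shallow clusters alone gave 7 genes higher and Gclm lower, at −2.09, and moved Abcc4 to 6.87 and Ephx1 to 6.17; there 19.3% of 7089 measured genes were past the fold and higher and 44.8% lower. Cholangiocyte markers, looked at because Gpx2 and Cbr3 were highest in cholangiocyte-like cells of WT, were lower in the hKO deep cluster: the 8 of them summed to 73.1 CPM in cluster 24, with 4 at 0 UMIs, and to 171 CPM in cluster 44, with 2 at 0. In the shallow clusters they summed to 26.5 and 33.0 CPM in hKO clusters 23 and 6, and to 43.6 CPM in WT cluster 43. The 8 macrophage markers summed to 58.6, 329 and 889 CPM in hKO clusters 24, 23 and 6, and to 66.4 and 447 CPM in WT clusters 44 and 43. The 6 erythroid markers summed to 91.0, 4412 and 1269 CPM in hKO clusters 24, 23 and 6, and to 2227 and 34768 CPM in WT clusters 44 and 43. Of these 5 clusters, Gclm was highest in cluster 43, where its level was above the 289 CPM of erythroid-like cells of WT. The part of these markers in the ratios was not tested.

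To set cells of unequal depth side by side, each was thinned to 1000 UMIs, which left out 249 hKO and 120 WT hepatocyte-like cells. A Cbr3 UMI then remained in 24.03% of 616 hKO and 0.300% of 333 WT cells. Before thinning, over all 865 hKO and 453 WT cells, these shares were 32.7% in hKO and 3.09% in WT. In T-like cells, which had medians of 3749 UMIs in hKO and 3675 in WT, the thinned Cbr3 share was 1.73% in hKO and 0.285% in WT. Thinned shares for Gpx2 were 2.76% in hKO and 0 of 333 WT cells, which by a floor of 3 counts allows up to 0.901%. For Ephx1 they were 59.1% in hKO and 12.9% in WT, for Abcc4 31.3% in hKO and 4.80% in WT, and for Srxn1 14.9% in hKO and 2.70% in WT. Gclm went the other way, with 11.04% of hKO and 26.1% of WT cells, while shares were close for Gclc (26.9% in hKO, 28.8% in WT), Txnrd1 (9.74% in hKO, 9.61% in WT) and Gsr (11.2% in hKO, 11.1% in WT). Thinning evens out depth, not the clusters that make up the class in each library. In the deep clusters before thinning, 92.7% of hKO cells of cluster 24 and 93.7% of WT cells of cluster 44 held an Ephx1 UMI.

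The regulators of the pathway were read from a list of 9 genes, all measured in hepatocyte-like cells. The gene for NRF2 itself, Nfe2l2, had 182 UMIs, 59.9 CPM, in hKO and 892 UMIs, 238 CPM, in WT, a log2 ratio of −1.99 (−2.23 to −1.76). Its inhibitor Keap1 had 37 UMIs in hKO and 174 in WT (−1.93, −2.48 to −1.41), and the repressor Bach1 had 82 in hKO and 320 in WT (−1.66, −2.03 to −1.31), both past the fold and lower. Cul3 (−1.17) and Maff (−1.03) were also past the fold and lower, and 1 regulator, the related factor Nfe2l1, was higher at 1.30 (0.99 to 1.62). The median of the 9 was −1.03, beside −0.92 over all measured genes, of which 46.1% were past the fold and lower. Centred on that median, 2 regulators were lower and 1 higher. Between the deep clusters Nfe2l2 was at 86.9 CPM in hKO cluster 24 and 275 CPM in WT cluster 44, and the shallow clusters had 31.1 and 37.3 CPM in hKO (23 and 6) and 88.6 CPM in WT (43). At a clustering resolution of 1.0, where other clusters form the class, 1 regulator was lower and the median of the 9 was 0.29. A cluster of 34 hKO and 200 WT cells with both cholangiocyte and hepatocyte markers raised stayed unnamed there. The class then held 785693 WT UMIs, against 3747528.

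Of 22 other known NRF2 targets, 21 were measured; 5 were past the fold and higher and 2 lower, with a median of 0.14. The higher ones were Txn1, thioredoxin, at 1.79, Slc7a11, the cystine importer, at 1.61, G6pdx and Pgd, which make NADPH in the pentose phosphate pathway, at 1.10 and 1.01, and Blvrb, a biliverdin reductase, at 1.08. Txn1 was abundant, with 3439 UMIs in hKO and 1227 in WT. The lower ones were Akr1b8, an aldo-keto reductase, with 3 UMIs in hKO and 42 in WT, at −3.51 (−5.84 to −1.86), and Gsta4, a glutathione transferase for lipid aldehydes, at −1.47. Aldh3a1 had 0 UMIs. Among 16 antioxidant genes not classed as NRF2 targets, 3 were past the fold and higher and 2 lower, with a median of 0.05. Ggt1, which breaks down extracellular glutathione, had 185 UMIs in hKO and 1 in WT, at 7.83 (5.34 to 13.1). Sod1, superoxide dismutase, was at 1.42 and Cat, catalase, at 1.20, while Gpx3, the secreted glutathione peroxidase, was at −4.26 and Prdx5, a peroxiredoxin, at −1.69. The median of the 10 genes, 1.04, was above those of all 3 lists.

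**Figure D3:**
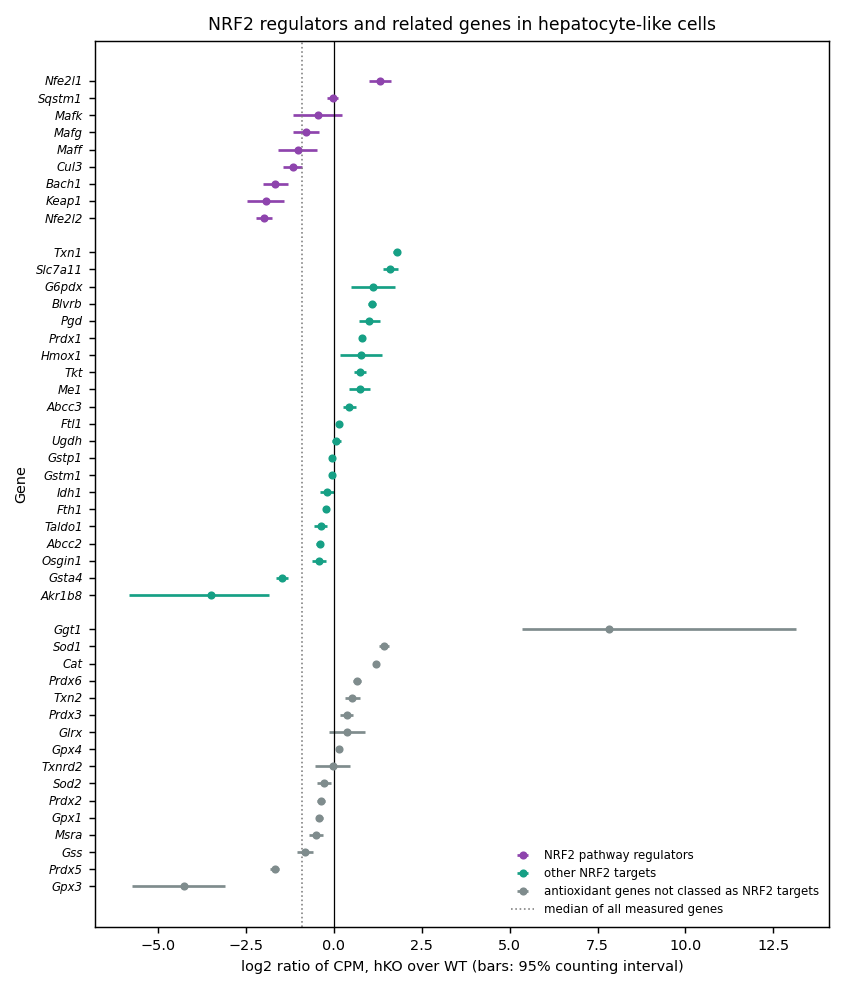
Log2 ratio of CPM, hKO over WT, in hepatocyte-like cells for the NRF2 regulators, the other NRF2 targets and the antioxidant genes not classed as targets (bars are 95% counting intervals; the dotted line is the median of all measured genes, −0.92). Nfe2l2, Keap1 and Bach1 lie left of the dotted line, and Txn1 and Slc7a11 lead the other targets.

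Across cell classes with at least 50 cells, the 10 genes were not all highest in hepatocyte-like cells. In hKO, 8 of them were, with Gclm there at 195 CPM overlapping erythroid-like cells at 156 CPM (124 to 193). Gsr was highest in neutrophil-like cells, at 1186 CPM (1106 to 1270) in hKO and 1793 CPM (1715 to 1873) in WT, then in monocyte-like cells, at 708 CPM in hKO and 650 CPM in WT, and only then in hepatocyte-like cells; none of these neighbours overlapped within a library. Txnrd1 was also highest in neutrophil-like cells, at 158 CPM (130 to 191) in hKO, overlapping hepatocyte-like cells, and at 165 CPM (142 to 190) in WT, which did not overlap the next class. In WT, Abcc4 was higher in endothelial-like cells, 166 CPM (157 to 174), than in hepatocyte-like cells, 114 CPM. Endothelial-like Abcc4 was 162 CPM (148 to 178) in hKO, so the levels of that class overlapped between libraries. Gclm in WT was 305 CPM in cholangiocyte-like, 289 CPM in erythroid-like and 279 CPM in hepatocyte-like cells, with overlapping neighbours. Gpx2 and Cbr3 were highest in WT in the 74 cholangiocyte-like cells, at 23.5 CPM (14.9 to 35.2) and 49.0 CPM (36.1 to 65.0). The 33 cholangiocyte-like hKO cells, too few for the order, had Gpx2 at 15.2 CPM (5.60 to 33.2) and Cbr3 at 30.5 CPM (15.8 to 53.3).

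**Figure D4:**
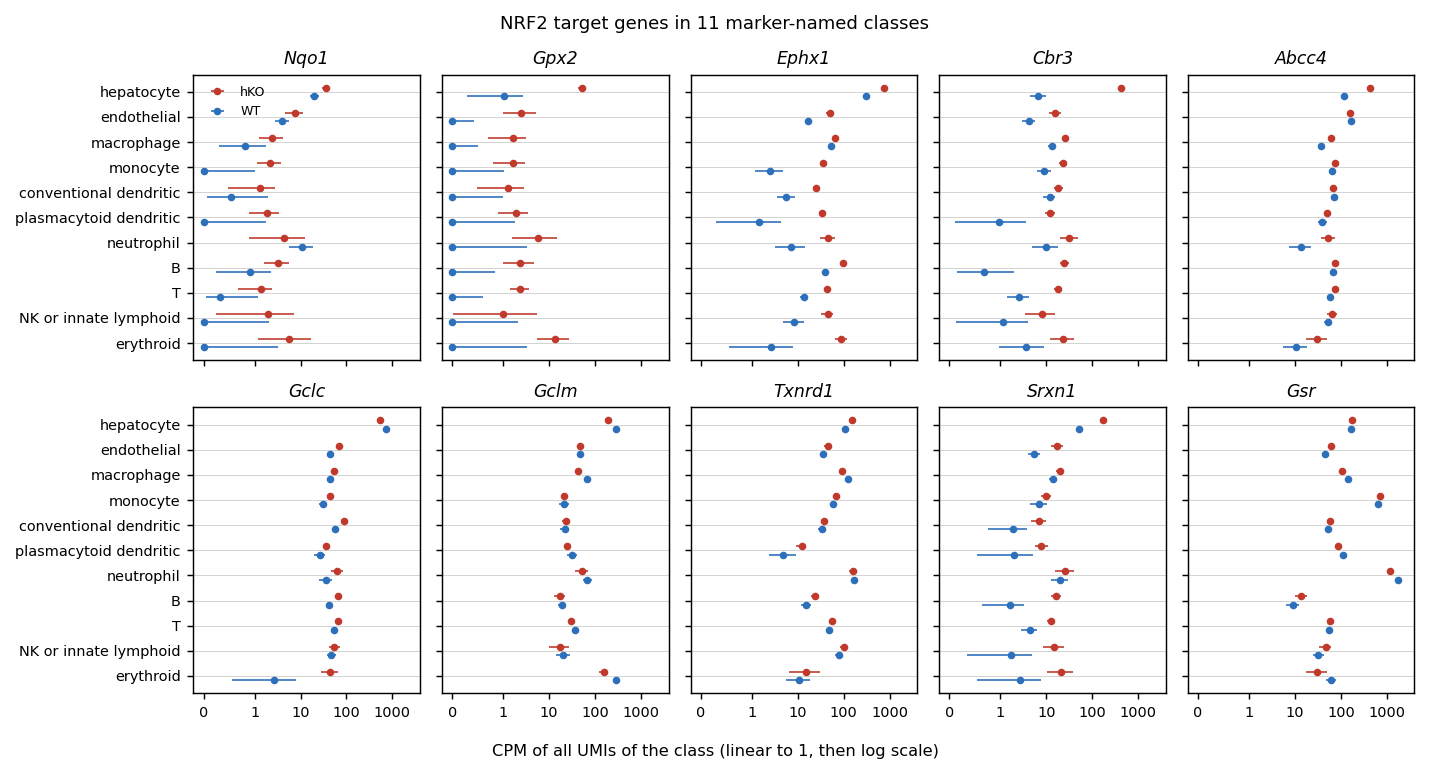
CPM of each of the 10 genes in the 11 compared classes, hKO in red and WT in blue (bars are 95% Poisson intervals; axes linear to 1 and logarithmic above). Cbr3 and Ephx1 are higher in hKO in most classes, Gsr peaks in neutrophil-like and monocyte-like cells of both libraries, and Abcc4 stands near 160 CPM in endothelial-like cells of both.

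Outside hepatocyte-like cells, 77 of the 100 pairs of a gene and a class were measured; 24 were past the fold and higher in hKO and 1 was lower. Ephx1 was higher in 9 of 10 classes, Cbr3 in 6 of the 8 where it was measured and Srxn1 in 5 of 8. Beside these counts, 7 to 9 of the 11 or 12 measured abundant hepatocyte genes were past the fold and higher in hKO in each of the 10 classes. With estimated free RNA subtracted, Cbr3 was past the fold and higher in none and lower in 4, endothelial-like, macrophage-like, monocyte-like and conventional dendritic-like cells. The endothelial-like ratio is a bound, since the observed hKO level of 15.7 CPM was under the 22.1 CPM subtracted. Several classes came mostly from different clusters in each library. Of B-like cells, cluster 25 held 1130 hKO and 44 WT cells, and cluster 34 held 27 hKO and 1081 WT cells. Cluster 33, also B-like, held 80 hKO and 0 WT cells and had 3 hepatocyte markers raised. Its part in the B-like ratios was not tested. Of plasmacytoid dendritic-like cells, cluster 16 held 907 hKO and 29 WT cells, and cluster 17 held 20 hKO and 264 WT cells. Of T-like cells, clusters 3 and 11 held 689 and 456 hKO cells and 34 and 75 WT cells, and clusters 32 and 4 held 47 and 39 hKO cells and 803 and 327 WT cells. Of macrophage-like cells, cluster 2 held 687 hKO and 384 WT cells, and clusters 29 and 5 held 142 and 47 hKO cells and 533 and 513 WT cells. In endothelial-like cells 3 of 9 measured genes were past the fold and higher (4.65% of all measured genes were), and none was lower (5.02%). In macrophage-like cells none of 8 was higher (4.05%) or lower (3.70%). In monocyte-like cells 2 of 8 were higher (4.37%) and none lower (2.39%), and in conventional dendritic-like cells also 2 of 8 (3.96%) and none (2.40%). Plasmacytoid dendritic-like cells had 4 of 8 higher (4.43%) and none lower (2.02%). Neutrophil-like cells had 3 of 8 higher (10.8%) and none lower (3.85%). B-like cells had 3 of 8 higher (5.21%) and none lower (3.63%), and T-like cells 3 of 8 (5.73%) and none (4.14%). NK or innate lymphoid-like cells had 1 of 6 higher (3.51%) and none lower (3.70%). Erythroid-like cells had 3 of 6 higher (8.39%) and 1, Gsr, lower (27.3%). Gsr there was at −1.01 (−1.90 to −0.21), from 16 UMIs in hKO and 69 in WT, but at 0.17 with doublets kept and 0.72 at a mitochondrial limit of 50%.

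Among the named pairs, Cbr3 in B-like cells had 85 UMIs, 24.9 CPM, in hKO and 3 UMIs, 0.681 CPM, in WT, a log2 ratio of 5.19 (3.59 to 7.50). Ephx1 in plasmacytoid dendritic-like cells had 180 UMIs in hKO and 3 in WT, a log2 ratio of 4.52 (2.95 to 6.81). Srxn1 in B-like cells had 56 UMIs in hKO and 7 in WT (3.36, 2.23 to 4.74). Abcc4 passed in neutrophil-like cells, with 37 UMIs in hKO and 15 in WT (1.97, 1.07 to 2.94), and in erythroid-like cells at 1.51. Txnrd1 passed in plasmacytoid dendritic-like cells, with 65 UMIs in hKO and 10 in WT (1.31, 0.34 to 2.44), and Gclc in erythroid-like cells, with 23 UMIs in hKO and 3 in WT (4.03, 2.31 to 6.41). Hepatocyte RNA at its share in hKO T-like cells, given below, would by itself give 22.7 CPM of Abcc4, 27.3 CPM of Gclc and 7.72 CPM of Txnrd1. Observed in hKO were 53.2 CPM (neutrophil-like) and 30.4 CPM (erythroid-like) of Abcc4, 43.7 CPM of Gclc and 12.2 CPM of Txnrd1. Abundant hepatocyte genes took a larger share of hKO UMIs in erythroid-like and neutrophil-like than in T-like cells. The part of this RNA in these pairs was not tested. Gclm was past the fold in none of the 10 classes. Nqo1 was measured in 1, endothelial-like cells, at 0.89 (0.04 to 1.71), and Gpx2 in none.

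Hepatocyte RNA was found in the other classes of both libraries, and more of it in hKO. In T-like cells, the 12 abundant hepatocyte genes took 0.517% of the hKO and 0.229% of the WT UMIs. Of these genes, 9 had a log2 ratio above 0 there and 3 below it, Apoa1 at −0.66, Cps1 at −0.60 and Trf at −0.45. Scaled to the composition of hepatocyte-like cells of the same library, hepatocyte RNA was 5.16% of the UMIs of hKO and 3.63% of those of WT T-like cells. At that share it would by itself give 22.1 CPM of Cbr3 in hKO and 0.242 CPM in WT, 38.7 CPM of Ephx1 in hKO and 11.3 CPM in WT, and 8.99 CPM of Srxn1 in hKO and 1.85 CPM in WT. Observed Cbr3 in hKO ranged from 7.95 to 31.7 CPM over the 10 classes, above that level in none, below it in 4 and with an interval that held it in 6. Observed Cbr3 in WT was above its level in 7 classes, with a highest value of 13.5 CPM in macrophage-like cells. For Ephx1 in hKO, 4 classes were above, 1 below and 5 held the level, and for Srxn1 6 were above and 4 held it. All these levels use the share of T-like cells, but the share differed between classes. In hKO the 12 abundant hepatocyte genes took 1.25% of UMIs in erythroid-like, 0.920% in B-like and 0.830% in neutrophil-like cells. They took 0.403% in conventional dendritic-like cells. Whether a class stood above the level at its own share was not tested. Gsr, at 9.01 CPM in hKO and 6.13 CPM in WT by this estimate, was above it in all 10 classes of both libraries. With the estimated free RNA subtracted, 13 pairs were past the fold and higher in hKO and 6 were lower, and Cbr3 was past the fold and higher in none.

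**Figure D5:**
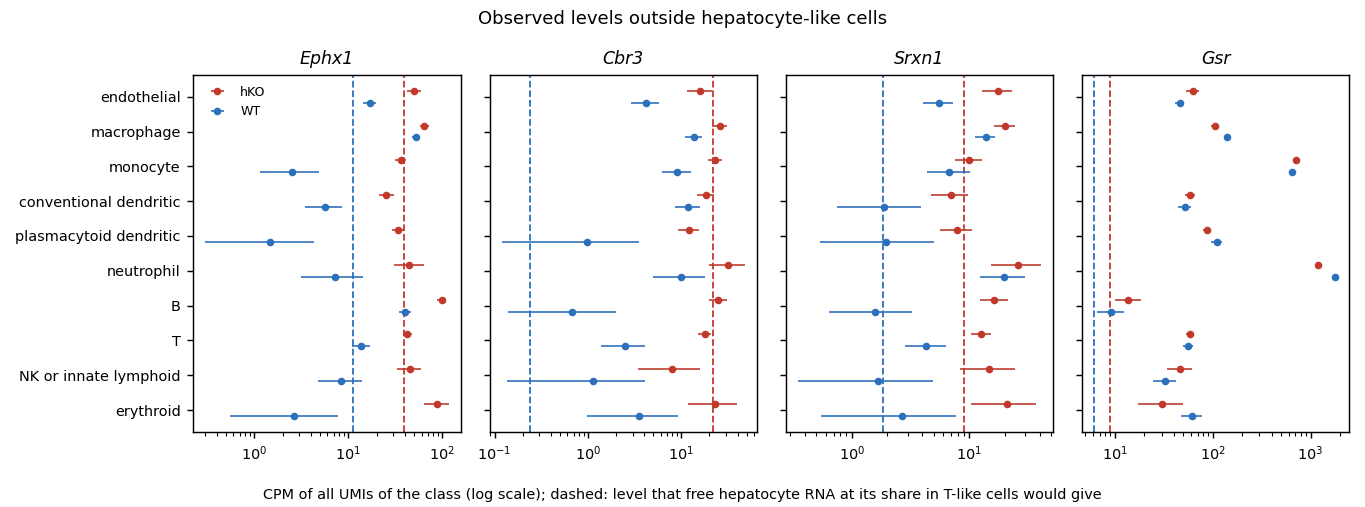
Observed CPM of Ephx1, Cbr3, Srxn1 and Gsr in the 10 compared classes other than hepatocyte-like, hKO in red and WT in blue (log axes; bars are 95% Poisson intervals). Dashed lines are the level that hepatocyte RNA at its share in T-like cells of the same library would give; no hKO interval of Cbr3 lies wholly above its line, and Gsr lies above both lines.

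The genes whose pattern over 24 class-by-library points was most like the mean of the 10 genes (Pearson correlation of log2(CPM + 10), a description without a test, in which points share a library and its free RNA) were Lcat at 0.95, Ugp2 and Aldh3a2 at 0.94, and Tsku and Bhmt at 0.93. Among 9 of the 10 genes (Nqo1 stayed under 50 CPM in every class), Srxn1 followed their mean most closely, at 0.94, and Gsr least, at 0.37, with Gclm at 0.55.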

How the data were processed

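The files hold whole-number UMI counts per gene and barcode as deposited by the authors, made with Cell Ranger 7.1.0 per the file headers. The tools are Cell Ranger, Seurat 3 and R 3.0, and the build mm9, per the submitters' processing notes. The sources used here name no annotation release. The deposited gene and barcode columns are names, with no values.

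Barcodes with at least 200 genes, 500 UMIs and at most 25% mitochondrial UMIs were kept, and doublets were removed with Scrublet: by its own threshold in WT (394 cells), and by the top 9.16% of scores in hKO (1049 cells), where that threshold called under 0.5%. Both libraries were clustered together with scanpy 1.11.5, without integration (2000 variable genes, 30 components, 15 neighbors, Leiden resolution 2.0). A cluster took the type whose markers were highest, with at least 3 raised by a log2 ratio of 1 or more. Cluster 43 stood at 34.0% of its library's median depth, just above the 33.3% under which a cluster without a marker among its leading genes stays unnamed; cluster 6, at 31.0%, had such a marker. UMIs were summed per class and library. Intervals are exact Poisson for CPM, Clopper-Pearson for shares of cells and conditional binomial for ratios (scipy 1.17.1), and a class count of 0 was replaced by 3 counts, which makes the ratio a bound. With 1 library per group no p-value was computed. The ratio step was tested on simulated data.

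The named genes are the 10 genes in each class, the genes of the other lists past the fold in hepatocyte-like cells, Nfe2l2, Keap1, Bach1, Fabp5, and the 5 genes most like the mean pattern. The genes, lists, resolution and rules were chosen with earlier results of these data known. Promoter sequences are from RefSeq (GRCm38.p6), matched by symbol. Their coordinates were used with no coordinate of the counts.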

Additional observations from a re-analysis of the deposited data

How the results depend on the processing

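In hepatocyte-like cells, the count of the 10 genes past the fold and higher in hKO was between 4 and 7 under all settings tried, against 5; it was 7 at resolution 1.0, with centring and without the deep clusters, where 16.3%, 20.9% and 19.3% of all measured genes were higher, against 9.18%, and 4 at mitochondrial limits of 10% and 50%, where 13.2% and 11.3% were. Cbr3, Gpx2, Abcc4 and Srxn1 had log2 ratios of 1 or more under each of the 16 settings, from 4.04 to 7.07, 2.52 to 7.51, 1.01 to 6.87 and 1.34 to 2.69, and those of Gpx2 against a WT count of 0 are bounds. Ephx1 ranged from −0.39 to 6.17: it was −0.39 with the deep clusters alone, 0.06 at a mitochondrial limit of 10% and 0.69 at 50%. Gclc ranged from −1.07 to 1.52 and Gclm from −2.09 to 0.41, and 1 gene was past the fold and lower, against 0, at a mitochondrial limit of 50% (Gclc), with barcodes gated on hepatocyte genes without a mitochondrial limit (Gclm) and without the deep clusters (Gclm). Over all measured genes, 48.5%, 50.7% and 44.8% were lower in these settings, against 46.1%. At the 50% limit the class held 5170 hKO and 237 WT cells, against 865 and 453. A cluster of 5 hKO and 495 WT cells whose highest markers were of hepatocytes then stayed unnamed. At resolution 1.0 an unnamed cluster with hepatocyte and cholangiocyte markers left the class 785693 WT UMIs, against 3747528. The part of these changes in the ratios was not tested. Of the 9 regulators, 1 (resolution 1.0) to 6 were lower, against 5; of the other NRF2 targets, 3 to 11 were higher, against 5; and of the antioxidant genes not classed as targets, 1 to 8 were higher, against 3, and 1 to 10 lower, against 2. The highest of these were with centring for higher genes and, for lower antioxidant genes, without the deep clusters. Outside hepatocyte-like cells, 24 pairs were higher and 1 lower. The higher pairs were 37 at a minimum of 1 UMI and 13 with free RNA subtracted. The lower pairs were 4 at a fold of 1.5, 6 with free RNA subtracted, and 0 at resolutions 1.0 and 3.0, with doublets kept, at a mitochondrial limit of 50%, at 500 genes and 1000 UMIs, with NRF2 genes left out of clustering, with mitochondrial, ribosomal-protein, hemoglobin and immunoglobulin genes taken out of the UMI total and with centring. Gsr in erythroid-like cells (−1.01) was 0.17 with doublets kept and 0.72 at a mitochondrial limit of 50%. With free RNA subtracted, Cbr3 was −1.85 in endothelial-like, −3.39 in monocyte-like, −0.78 in plasmacytoid dendritic-like and −2.63 in T-like cells. In endothelial-like and T-like cells the observed hKO level, 15.7 and 17.8 CPM, was under the 22.1 CPM subtracted. The hKO counts there were replaced by 3 counts, so the ratios of those classes are bounds set by the subtraction. The cause of these changes was not tested. No paired analysis was possible because each group has 1 library, and no library could be left out. Outside hepatocyte-like cells, Nqo1 and Gpx2 were measured in 1 and 0 of 10 classes.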

Other observations

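Cluster 37 (254 hKO and 26 WT cells) stayed unnamed, with 2 of 12 hepatocyte markers raised and Car3, Bhmt and Ubd leading. The 10 genes together made up 3061 CPM of its hKO UMIs and 2706 CPM of its WT UMIs, of 681056 UMIs in hKO and 49516 in WT. Added to the hepatocyte-like class, it gave 6 of the 10 genes past the fold and higher in hKO, Nqo1 at 1.04 (0.64 to 1.44) being the gene that came in; 9.39% of 11494 measured genes were then higher and 39.9% lower.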
